A study of Mus musculus with 6 samples.

Results

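The genes described here encode the nuclear subunits of the last steps of mitochondrial respiration, which are complex III, cytochrome c, complex IV and ATP synthase. They were chosen by name, as rows whose symbol begins with Uqcr, with Cox followed by a digit between 4 and 8, or with Atp5, plus Cyc1 and Cycs. After 5 rows whose names contain -ps (pseudogenes) were dropped, 43 of the 26529 genes in the deposited table remained, 9 for complex III, 1 for cytochrome c, 16 for complex IV and 17 for ATP synthase. The series sequenced RNA from bone marrow cells of wild-type C57BL/6 mice aged 8 weeks, cultured with M-CSF at 20 ng/ml, the growth factor of macrophages, and 10 ng/ml RANKL, which makes such cells form osteoclasts. OC libraries (osteoclasts, the bone-resorbing cells, n = 3) came from culture day 6, and OCP libraries (osteoclast precursors, n = 3) from day 3, so stage and time in culture cannot be told apart. Per the labels, both groups received the same cytokines, and OC were identified as multinucleated cells positive for TRAP, the osteoclast acid phosphatase. Whether replicates are separate mice or separate cultures is not in the labels. The p-values therefore describe the spread of these 6 libraries, which may be technical.

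In the inner mitochondrial membrane, complex III passes electrons from ubiquinol to cytochrome c, and complex IV passes them from cytochrome c to oxygen. Both pump or release protons across the membrane, and ATP synthase lets the protons back through a rotating ring of c subunits to make ATP in its F1 head. A few subunits of complexes III and IV and of the membrane part of ATP synthase are encoded by mitochondrial DNA, and all the others are nuclear. Several nuclear subunits of complex IV exist as a general isoform and a second isoform known from heart, skeletal muscle, lung or testis. Osteoclasts are known as cells rich in mitochondria, whose proton pumping into the resorption pit consumes ATP.

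The libraries held between 33219178 and 38113266 reads assigned to genes in OC and between 36740844 and 42121216 in OCP, and 3 reads in a gene of 1 kb were worth 0.0712 to 0.0903 RPKM (reads scaled to gene length and to all assigned reads). Correlations of log2(RPKM + 1) over all genes were 0.994 to 0.995 within groups and 0.949 to 0.956 between groups. Osteoclast markers were not higher in the libraries labelled as mature osteoclasts. All 13 markers were lower in OC, with Ctsk, the collagen-degrading protease cathepsin K, and Acp5, the gene of TRAP, both at a log2 fold change of -0.92. Their summed level was 2932 to 3027 RPKM in OC, against 5410 to 5560 RPKM in OCP. Of 9 macrophage markers, 7 were higher, led by the chemokine receptor gene Cx3cr1 (1.5) and the scavenger receptor gene Cd36 (1.32), and 2 were lower, Cd68 at -0.24 and Csf1r, the M-CSF receptor, at -0.22. They had sums of 8186 to 8710 RPKM in OC and 5198 to 5650 RPKM in OCP. Both marker counts stand beside 32.1% called lower and 23.5% called higher among all tested genes. OC and OCP are therefore used below as the names on the libraries. In bulk RNA, fewer cells of a type and less RNA per cell cannot be told apart.

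Nearly all subunit genes were lower in OC, each by less than 2-fold. Of the 43 genes, 39 reached 1 RPKM in at least 3 of the 6 libraries and were tested, and 37 of these were lower in OC and 0 higher (limma on log2(RPKM + 1), adjusted p under 0.05 over 12301 tested genes). Over all tested genes, 32.1% were called lower and 23.5% higher. The calls that failed were those of Atp5sl, a gene named after ATP synthase, and Cox6a2, the heart and muscle isoform of subunit 6A. The 3 OC values lay below the 3 OCP values in 38 of the 39 tested genes, all but Cox6a2, against 36% of all tested genes. The median log2 fold change of the 39 genes was -0.49, with a range of -0.93 to -0.08, and that of all tested genes was -0.05, with quartiles of -0.27 and 0.19. In RPKM the reduction had a median of 28.7% and a range of 7.84% to 47.9%. No subunit gene was called and at least 2-fold lower, and 0.439% of all tested genes were. When libraries were rescaled by TMM factors, 34 of the 39 were called lower, against 26.2% of all tested genes, and over all genes 3471 were higher and 3224 lower with these factors, against 2889 higher and 3954 lower without them.

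**Figure D1:**
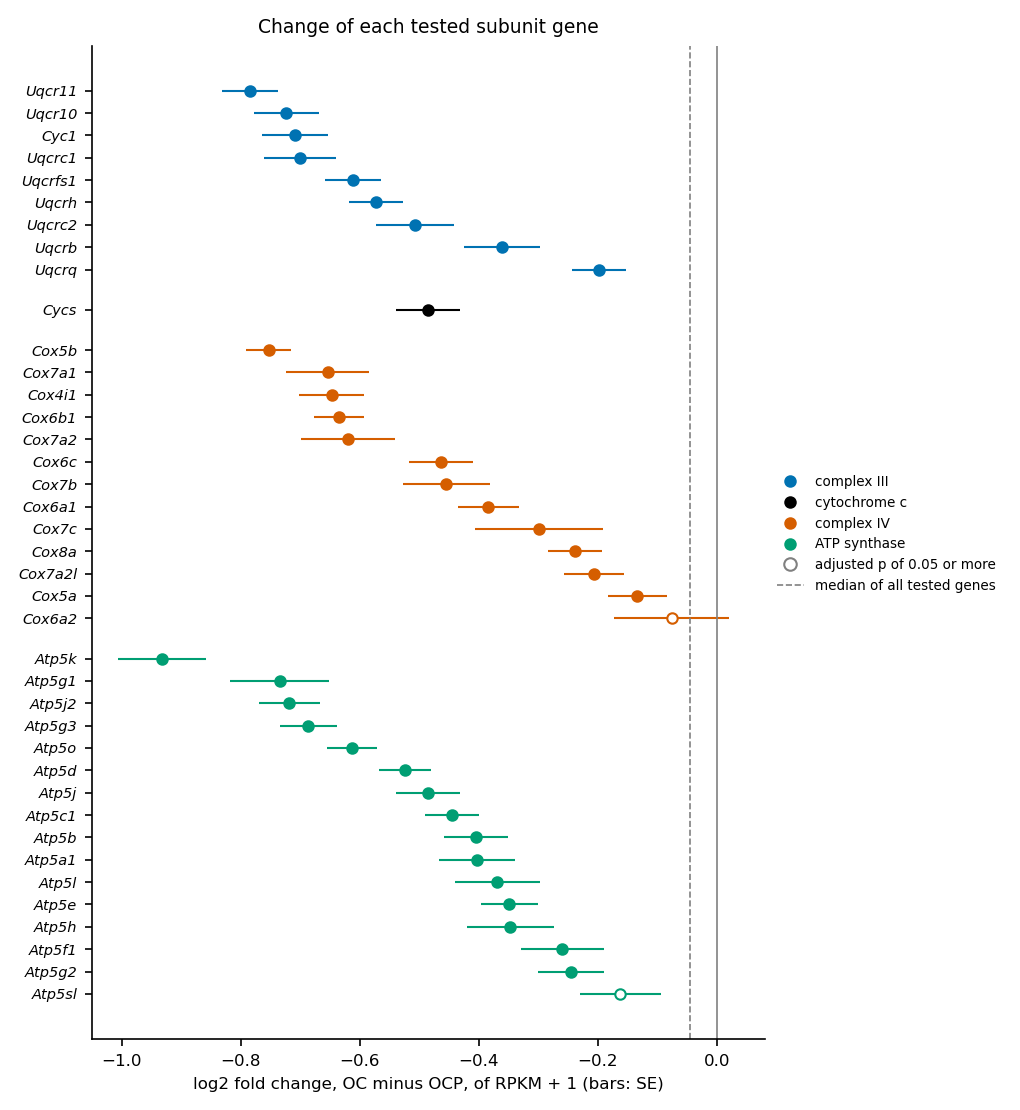
Log2 fold change (OC minus OCP, of RPKM + 1) of each tested subunit gene with its standard error, grouped by complex; open circles mark an adjusted p of 0.05 or more. All 39 points lie left of 0, from -0.93 for Atp5k to -0.08 for Cox6a2, and the dashed line is the median of all tested genes, -0.05.

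Summed over the genes of each complex, the message level was lower in every OC library than in every OCP library. The complex III genes summed to 1222, 1231 and 1230 RPKM in OC, against 1859, 1796 and 1816 RPKM in OCP, which is 32.7% lower in OC. The complex IV genes summed to 1070 ± 14.6 RPKM in OC and 1608 ± 6.53 RPKM in OCP (SD, n = 3 each), 33.5% lower. The ATP synthase genes summed to 1793 ± 68.6 RPKM in OC and 2465 ± 19.3 RPKM in OCP (SD, n = 3 each), 27.3% lower. Together the 43 genes took 0.851% ± 0.0213 of the assigned reads in OC and 1.19% ± 0.012 in OCP (SD, n = 3 each). The coefficient of variation between replicates had a median over the tested subunit genes of 4.32% in OC and 4.53% in OCP. It was highest for Cox6a2, at 13.3% in OC and 14.4% in OCP. Across the 39 tested genes, the log2 fold change had a Pearson r of -0.34 and a Spearman rho of -0.26 with the mean level, and 0.11 and 0.07 with exon length. These are descriptions over genes that share the same 6 libraries.

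**Figure D2:**
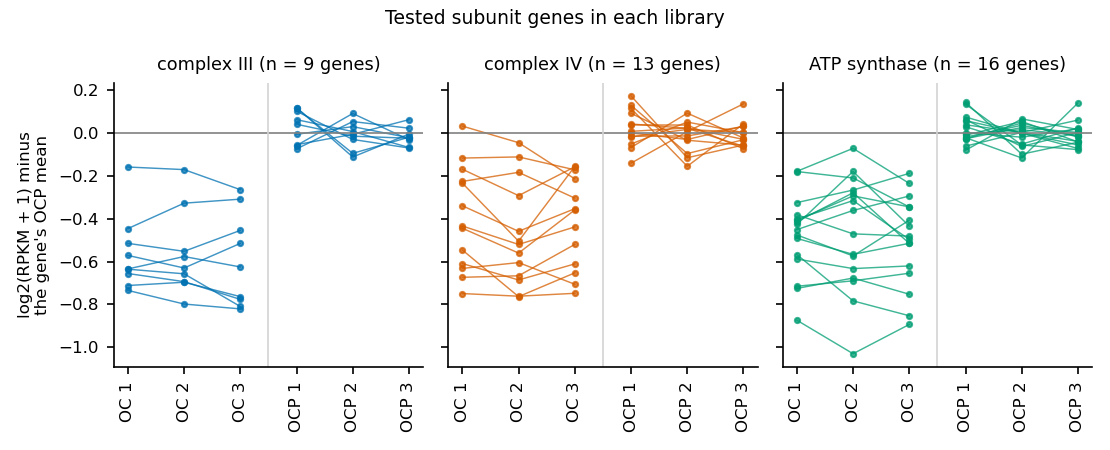
Log2(RPKM + 1) of each tested subunit gene in the 6 libraries, as the difference from that gene's mean in OCP; each line joins the libraries of 1 gene and has no order in time. The complex III and ATP synthase lines lie below 0 in every OC library, and in the complex IV panel Cox6a2 alone is above 0 in an OC library.

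Promoters of respiratory subunit genes are known to bind NRF1, GABPA and other ETS factors, and YY1. RefSeq promoter windows (GRCm38.p6, 250 bases before to 50 after the transcription start) were matched to 34 of the 43 genes. The exact motifs searched on both strands were GCATGCGC for NRF1, CCGGAAG for ETS factors and AAGATGGC for YY1, and no match of one overlapped a match of another. The NRF1 motif was in a window of 7 of the 34 genes (20.6%), against 3.05% of all 27025 genes with a window. The ETS motif was in a window of 10 genes (29.4%) against 9.93% of all genes, and the YY1 motif in a window of 4 genes (11.8%) against 3.19%. By window, the motifs were in 7, 10 and 5 of the 38 windows of subunit genes, against 2.71%, 8.86% and 2.75% of all 32851 windows of the same length. The windows of 18 genes held none of the motifs. Among the 31 tested genes with a window, those with any motif (16 genes) had a median log2 fold change of -0.43 and those with none (15 genes) of -0.61. The same medians were -0.49 with the NRF1 motif (7 genes) and -0.50 without it (24 genes). For the ETS motif they were -0.43 with it (10 genes) and -0.52 without it (21 genes). For the YY1 motif they were -0.37 with it (4 genes) and -0.52 without it (27 genes). These are descriptions without a test, and a match of letters is not a measured binding site.

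The promoters of 5 genes are printed from 170 bases before to 30 bases after the start, 5′ to 3′ on the gene's strand. Atp5k, Uqcr11 and Cox6a1 held both the NRF1 and the ETS motif, with log2 fold changes of -0.93, -0.78 and -0.38. Atp5l (-0.37), not printed, also held both. Atp5g2 held the NRF1 motif and was among the least reduced ATP synthase genes (-0.25). An unbroken stretch of bases just after its RefSeq start was not found in a GENCODE M21 transcript of Atp5g2. It is among 7 such windows of the 38. Such a stretch is also missed where it crosses an exon end or where the gene has another symbol, so a miss does not show a wrong start. Cox5b held none of the motifs and was the most reduced complex IV gene (-0.75). Capitals mark the matches, and GCGCATGCGC is the NRF1 motif read on both strands at the same place. The windows are Atp5k at chr5:108434370-108434569 (minus strand), Uqcr11 at chr10:80406792-80406991 (minus), Cox6a1 at chr5:115348929-115349128 (minus), Atp5g2 at chr15:102671018-102671217 (minus) and Cox5b at chr1:36691317-36691516 (plus), all GRCm38.p6.
Atp5k: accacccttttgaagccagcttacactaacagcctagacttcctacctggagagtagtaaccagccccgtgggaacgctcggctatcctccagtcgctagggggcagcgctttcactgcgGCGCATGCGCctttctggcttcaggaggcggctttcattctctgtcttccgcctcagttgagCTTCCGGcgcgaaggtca
Uqcr11: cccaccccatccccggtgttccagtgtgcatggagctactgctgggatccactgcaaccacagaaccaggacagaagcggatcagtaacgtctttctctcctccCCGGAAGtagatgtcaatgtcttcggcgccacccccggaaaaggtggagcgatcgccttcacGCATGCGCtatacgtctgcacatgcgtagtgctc
Cox6a1: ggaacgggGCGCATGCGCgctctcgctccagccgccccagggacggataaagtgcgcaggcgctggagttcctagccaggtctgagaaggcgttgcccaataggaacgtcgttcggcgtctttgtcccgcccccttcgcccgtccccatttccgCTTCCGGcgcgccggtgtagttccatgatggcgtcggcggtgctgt
Atp5g2: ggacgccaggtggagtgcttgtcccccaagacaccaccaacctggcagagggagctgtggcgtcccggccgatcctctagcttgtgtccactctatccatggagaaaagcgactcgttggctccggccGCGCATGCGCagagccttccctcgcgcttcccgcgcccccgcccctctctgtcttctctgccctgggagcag
Cox5b: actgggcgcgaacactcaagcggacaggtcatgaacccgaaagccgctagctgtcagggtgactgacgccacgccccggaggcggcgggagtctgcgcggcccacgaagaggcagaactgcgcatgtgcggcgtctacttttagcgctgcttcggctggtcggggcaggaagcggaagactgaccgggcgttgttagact

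**Figure D3:**
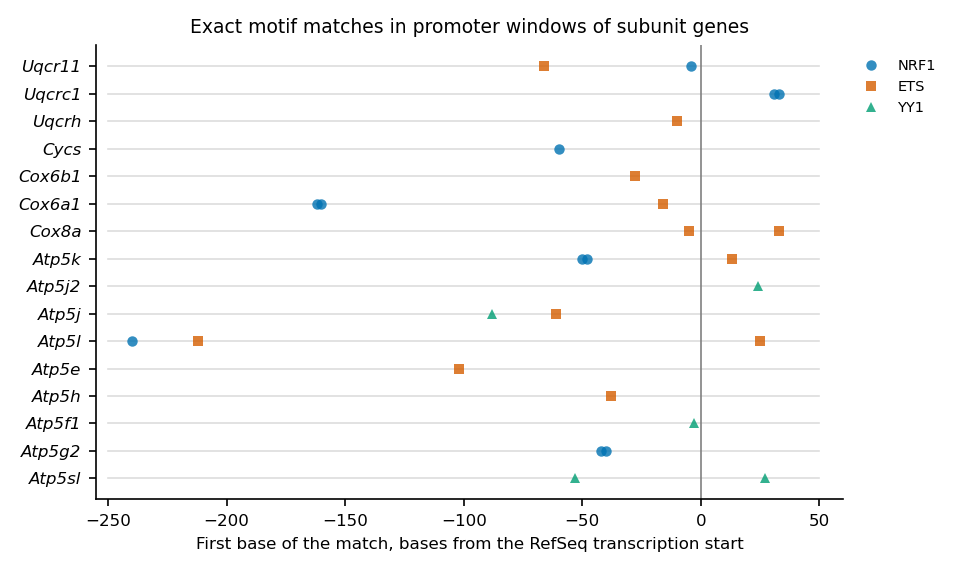
First base of each exact motif match, in bases from the RefSeq transcription start, in the 300-base windows of the 16 subunit genes with any match; circles are NRF1, squares ETS and triangles YY1. Pairs of circles 2 bases apart are the same place read on both strands, and matches lie from -240 in Atp5l to 33 in Uqcrc1 and Cox8a.

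All 9 complex III genes were lower in OC, with a median log2 fold change of -0.61. The largest change was in Uqcr11 (chr10:80402997-80406830, minus strand), which encodes a small membrane subunit. It had 243, 233 and 229 RPKM in OC, against 390, 404 and 423 RPKM in OCP (log2 fold change -0.78 ± 0.05 SE, limma adjusted p = 6.5e-06). The groups lay far apart beside a spread of 7.36 RPKM in OC and 16.6 RPKM in OCP (SD). Uqcr10 (chr11:4701973-4704342, minus strand), another small subunit, had 49.3, 49.8 and 47.5 RPKM in OC, against 87.4, 79.7 and 77.5 RPKM in OCP (log2 fold change -0.72 ± 0.05 SE, limma adjusted p = 2.2e-05). Cyc1 (chr15:76343523-76345934, plus strand), cytochrome c1, which hands electrons to cytochrome c, had 60.1, 58.5 and 55.2 RPKM in OC, against 91.4, 101 and 93.2 RPKM in OCP (log2 fold change -0.71 ± 0.06 SE, limma adjusted p = 2.7e-05). In each of these 3 genes the highest OC library was well below the lowest OCP library.

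The other electron-carrying subunit of complex III, the Rieske iron-sulfur protein encoded by Uqcrfs1, averaged 85.7 ± 1.88 RPKM in OC and 132 ± 5.96 RPKM in OCP (SD, n = 3 each), a log2 fold change of -0.61. The core proteins, which hold the complex together on the matrix side, were also lower, Uqcrc1 at -0.70 and Uqcrc2 at -0.51. Uqcrh, the acidic hinge protein beside cytochrome c1, had a log2 fold change of -0.57. Uqcrb, a small subunit at the ubiquinone-binding part, was the most abundant complex III gene per length. It had 341, 370 and 375 RPKM in OC, against 504, 435 and 459 RPKM in OCP (log2 fold change -0.36 ± 0.06 SE, limma adjusted p = 0.0019). Uqcrq, which sits next to cytochrome b, changed least, at 65.0, 64.5 and 60.4 RPKM in OC, against 72.4, 74.2 and 71.6 RPKM in OCP (log2 fold change -0.20 ± 0.05 SE, limma adjusted p = 0.0068). Its groups still did not overlap, but its call was lost with TMM factors (adjusted p = 0.056). Small subunits stood at both ends of the range within the complex.

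Cycs, somatic cytochrome c, the mobile carrier between complexes III and IV, was lower in OC. It had 52.7, 50.1 and 52.5 RPKM in OC, against 77.9, 69.4 and 71.6 RPKM in OCP (log2 fold change -0.49 ± 0.05 SE, limma adjusted p = 0.00016).

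Of the 13 tested complex IV genes, 12 were lower in OC and Cox6a2 was not called. The median log2 fold change was -0.45. Cox5b (chr1:36691484-36693681, plus strand), a zinc-binding subunit on the matrix side, was the most abundant per length and the most reduced. It had 308, 305 and 308 RPKM in OC, against 512, 512 and 528 RPKM in OCP (log2 fold change -0.75 ± 0.04 SE, limma adjusted p = 2.4e-06). Its partner in name, Cox5a, which is known to contact subunit 4, had 15.0, 15.0 and 14.4 RPKM in OC, against 16.8, 16.6 and 15.6 RPKM in OCP. The Cox5a difference was small (log2 fold change -0.13 ± 0.05 SE, limma adjusted p = 0.049), and over the alternatives its adjusted p ran between 0.044 and 0.31. The call was lost when any library but OCP replicate 3 was left out (adjusted p = 0.083 to 0.14).

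Cox4i1 (chr8:120668222-120674207, plus strand), the general isoform of the regulatory subunit 4, had 250, 254 and 237 RPKM in OC, against 369, 413 and 381 RPKM in OCP (log2 fold change -0.65 ± 0.05 SE, limma adjusted p = 3.6e-05). All 3 OC libraries were far below the lowest OCP library. The other general subunits were lower by steps, Cox6b1 at -0.64, Cox7a2 at -0.62, Cox6c at -0.46, Cox7b at -0.45, Cox6a1 at -0.38, Cox7c at -0.30 and Cox8a at -0.24 on the log2 scale. Cox7c, a small membrane subunit, spread most among these, with 19.2, 15.8 and 20.4 RPKM in OC, against 25.8, 21.0 and 21.9 RPKM in OCP. Its limma adjusted p was 0.047 and ran between 0.016 and 0.13 over the alternatives, with the call lost without OC replicate 1, OC replicate 2, OCP replicate 1 or OCP replicate 3 (adjusted p = 0.069 to 0.13). Cox7a2l, whose protein is known for joining complexes III and IV into supercomplexes, had 50.5, 46.3 and 50.9 RPKM in OC, against 56.9, 55.7 and 58.2 RPKM in OCP (log2 fold change -0.21 ± 0.05 SE, limma adjusted p = 0.009).

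The isoforms of complex IV known from restricted tissues were low in both groups, with Cox7a1 the highest of them. Cox7a1 (chr7:30184144-30186078, plus strand), the heart and muscle isoform of subunit 7A, had 6.83, 5.74 and 6.28 RPKM in OC, against 10.7, 10.7 and 9.87 RPKM in OCP (log2 fold change -0.65 ± 0.07 SE, limma adjusted p = 0.00013). Its level was 35.4% of that of Cox7a2 in OC and 37.4% in OCP. Cox6a2 had 2.02, 1.86 and 1.54 RPKM in OC, against 1.68, 1.96 and 2.24 RPKM in OCP (log2 fold change -0.08 ± 0.10 SE, limma adjusted p = 0.53), and the groups overlapped. It was the tested complex IV gene closest to the 1 RPKM filter, and its level was 3.98% of that of Cox6a1 in OC and 3.29% in OCP.

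Cox4i2, Cox6b2 and Cox8b were under the filter and were not tested. Cox4i2, the lung isoform of subunit 4, had 0, 7 and 8 reads in OC, against 4, 0 and 3 reads in OCP, and where it was at 0 a count of 0 allows up to 0.109 RPKM in OC and 0.0959 RPKM in OCP. Cox6b2, the testis isoform of subunit 6B, had 0.309, 0.598 and 0.284 RPKM in OC, against 0.343, 0.682 and 0.614 RPKM in OCP. Cox8b, the heart and muscle isoform of subunit 8, had 0.317, 0.669 and 1.17 RPKM in OC, against 0.659, 0.140 and 0.151 RPKM in OCP, from 4 to 16 reads in OC and 2 to 10 reads in OCP. In all of these the groups overlapped, and no difference was detectable at this depth. Markers of tissues that use such isoforms were near 0 or at like levels in both groups. The 9 muscle markers summed to 26.4 to 32.8 RPKM in OC and 26.9 to 31.2 RPKM in OCP, 0 of the 4 tested were called, and Myh7, a slow muscle and heart myosin, was the most abundant at 18.6 ± 1.79 RPKM in OC and 18.2 ± 1.42 RPKM in OCP (SD, n = 3 each). The 4 brown fat markers summed to at most 0.427 RPKM in OC and 0.600 RPKM in OCP, and the germ cell markers to at most 0.0178 RPKM in OC and 0.117 RPKM in OCP. What part they have in the isoform levels was not tested.

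**Figure D4:**
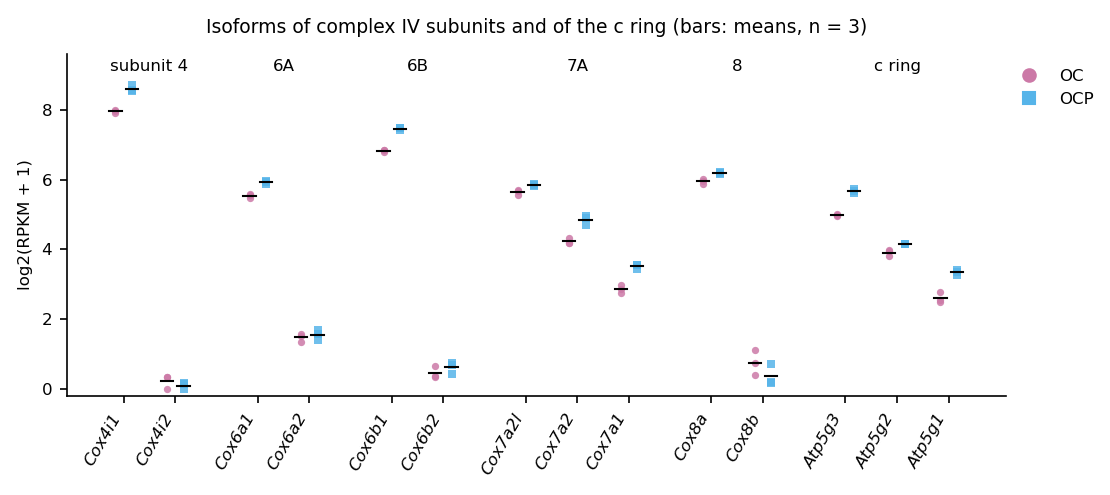
Log2(RPKM + 1) of the isoforms of complex IV subunits 4, 6A, 6B, 7A and 8 and of the ATP synthase c ring in each library, with OC (circles) left of OCP (squares) and a bar at each mean (n = 3). The general isoforms of complex IV are lower in OC without overlap, and Cox4i2, Cox6a2, Cox6b2 and Cox8b overlap between the groups near the bottom of the scale.

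Of 9 isoform ratios compared between the groups, none could reach 0.05, because the smallest p of the exact permutation test with 3 against 3 libraries is 0.1 (two-sided). The ratio of Cox7a1 to Cox7a2 averaged -1.37 ± 0.14 in OC and -1.33 ± 0.17 in OCP (log2 of RPKM + 1, SD, n = 3 each). The groups overlapped (exact p = 0.6, 0.675 after Benjamini-Hochberg adjustment over the 9 ratios), so both subunit 7A isoforms were reduced by amounts that this design did not separate. The ratio of Cox7a2l to Cox7a2 averaged 1.42 ± 0.08 in OC and 1.01 ± 0.12 in OCP without overlap (exact p = 0.1, adjusted 0.15). Cox7a2l had therefore a higher ratio to Cox7a2 in all 3 OC libraries than in any OCP library. The ratios of Cox4i2, Cox6a2 and Cox6b2 to their general isoforms were also higher in OC without overlap (differences of 0.77, 0.31 and 0.49, exact p = 0.1, adjusted 0.15 each). That of Cox8b overlapped (difference 0.61, exact p = 0.2, adjusted 0.257). With these isoforms near 0 or at most at 2.24 RPKM, these ratios depend largely on the general isoform and the added 1 RPKM.

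Of the 16 tested ATP synthase genes, 15 were lower in OC and Atp5sl was not called; the median log2 fold change was -0.42. The largest change of all subunit genes was in Atp5k (chr5:108433244-108434448, minus strand), subunit e, a small membrane subunit known for pairing ATP synthase into dimers. It had 128, 115 and 126 RPKM in OC, against 232, 217 and 259 RPKM in OCP (log2 fold change -0.93 ± 0.07 SE, limma adjusted p = 2.7e-05). Its mean was 47.9% lower in OC. Atp5j2 (chr5:145183698-145192062, minus strand), the membrane subunit f, had 38.7, 40.0 and 37.9 RPKM in OC, against 68.0, 64.5 and 61.4 RPKM in OCP (log2 fold change -0.72 ± 0.05 SE, limma adjusted p = 1.6e-05). The groups of both genes were wide apart, and the median over subunits e, f and g (Atp5l, -0.37) was -0.72.

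The F1 head, which makes the ATP, was 22.4% to 31.3% lower in its 5 genes, all called. Atp5b, the catalytic beta subunit, was the most abundant of all 43 genes per length. It had 529, 562 and 495 RPKM in OC, against 686, 722 and 690 RPKM in OCP (log2 fold change -0.40 ± 0.05 SE, limma adjusted p = 0.00043). Atp5a1, the alpha subunit, with which it alternates around the head, had the same log2 fold change of -0.40, and the central stalk subunits Atp5c1, Atp5d and Atp5e had -0.44, -0.52 and -0.35. The peripheral stalk, which keeps the head from turning, had 4 of 4 genes lower, with Atp5o at -0.61, Atp5j at -0.49, Atp5h at -0.35 and Atp5f1 at -0.26. The calls of Atp5f1 held in all but the quantile-normalized values (adjusted p = 0.051) and the fit without OC replicate 1 (0.052).

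The 3 genes for the c ring encode the same mature c subunit behind different targeting sequences, and all were lower. Atp5g3, the most abundant of them, had 30.0, 30.5 and 31.3 RPKM in OC, against 47.7, 49.9 and 52.0 RPKM in OCP (log2 fold change -0.69 ± 0.05 SE, limma adjusted p = 1.4e-05). Atp5g1 (chr11:96068852-96075670, minus strand) had 5.86, 4.90 and 4.63 RPKM in OC, against 8.60, 9.63 and 9.27 RPKM in OCP (log2 fold change -0.73 ± 0.08 SE, limma adjusted p = 0.00018). Atp5g2 had 14.7, 14.4 and 13.0 RPKM in OC, against 16.8, 17.0 and 16.7 RPKM in OCP (log2 fold change -0.25 ± 0.06 SE, limma adjusted p = 0.0062). Per length, the order Atp5g3, Atp5g2, Atp5g1 held in every library, but the distances between them changed. The place of Atp5g2 above Atp5g1 depends on their annotated exon lengths, 1675 and 4912 bases. In reads, Atp5g1 had 1007, 800 and 866 in OC and 1780, 1878 and 1673 in OCP. Atp5g2 had 863, 801 and 831 reads in OC and 1183, 1130 and 1026 in OCP. Atp5g2 stood at 45.9% of the Atp5g3 level in OC and 33.7% in OCP, and Atp5g1 at 36.5% of the Atp5g2 level in OC and 54.5% in OCP. The log2 ratio of Atp5g2 to Atp5g3 was higher in OC by 0.44 and that of Atp5g1 to Atp5g2 lower by 0.49, both without overlap (exact permutation p = 0.1, adjusted 0.15). That of Atp5g1 to Atp5g3 overlapped (difference -0.05, exact permutation p = 0.8). Measured pseudogenes nearly identical to these genes (at least 95% over at least 100 bases) held reads equal to 10.1% of those of Atp5g1 and 12.8% of those of Atp5g2. How reads matching both were counted is not given, so the levels of these genes are uncertain by an unknown amount.

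The genes Atp5sl and Atp5s carry the name of ATP synthase without being structural subunits of it. Atp5sl had 3.09, 3.41 and 2.94 RPKM in OC, against 3.84, 3.44 and 3.64 RPKM in OCP (log2 fold change -0.16 ± 0.07 SE, limma adjusted p = 0.075). Its groups came close without overlapping, and the call was gained with quantile normalization (adjusted p = 0.034) and without OC replicate 2 (adjusted p = 0.0498). Atp5s, just under the filter, had 0.789, 0.750 and 0.883 RPKM in OC, against 1.02, 0.916 and 0.916 RPKM in OCP.

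The genes of these complexes that the name rule leaves out moved in the same direction where they are nuclear, and in both directions where they are mitochondrial. Ndufa4, a subunit now counted with complex IV, had 26.8, 23.2 and 25.0 RPKM in OC, against 47.4, 37.7 and 42.5 RPKM in OCP (log2 fold change -0.74 ± 0.09 SE, limma adjusted p = 0.00025). Atpif1, the inhibitor of ATP hydrolysis by ATP synthase, averaged 155 ± 3.05 RPKM in OC and 216 ± 8.54 RPKM in OCP (SD, n = 3 each), and the 4 measured genes of this list were all lower. Of the 6 mitochondrially encoded subunits, 3 were lower and 1 higher in OC, beside 32.1% lower and 23.5% higher over all tested genes. mt-Cytb, cytochrome b, the mitochondrial subunit of complex III, had 938, 954 and 1099 RPKM in OC, against 1817, 1333 and 1466 RPKM in OCP (log2 fold change -0.62 ± 0.12 SE, limma adjusted p = 0.0037). mt-Co1, the catalytic subunit of complex IV, had 2025, 1937 and 2011 RPKM in OC, against 1531, 1120 and 1140 RPKM in OCP (log2 fold change 0.67 ± 0.12 SE, limma adjusted p = 0.0022). These stand opposite, since every OC library was below every OCP library for mt-Cytb and above it for mt-Co1. The genes mt-Co2, mt-Co3, mt-Atp6 and mt-Atp8 averaged far less, at 25.7, 9.76, 34.6 and 71.0 RPKM in OC. In OCP they averaged 33.7, 12.6, 45.1 and 87.6 RPKM. Near-identical copies of the mitochondrial genes were not searched for, so the levels and changes of these genes are uncertain.

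Assembly factors were lower or not called, apart from 2 of complex IV. For complex III, 3 of 5 tested were lower, beside 32.1% lower and 23.5% higher over all tested genes. Uqcc1 and Uqcc2, which guide cytochrome b, were at -0.54 and -0.52. For complex IV, 15 of 23 were lower and 2 higher, with a median of -0.29. Cmc2 averaged 4.46 ± 0.414 RPKM in OC and 7.70 ± 0.455 RPKM in OCP (SD, n = 3 each), and Cox10, which makes heme O for the complex, had a log2 fold change of -0.61. In the opposite direction, Cox18, a factor that inserts a mitochondrial subunit into the membrane, averaged 1.59 ± 0.11 RPKM in OC and 1.12 ± 0.0223 RPKM in OCP (SD, n = 3 each; log2 fold change 0.29 ± 0.07 SE, limma adjusted p = 0.0063). For ATP synthase, Atpaf2 (-0.25) and Atpaf1 (-0.22), which assemble the F1 head, were lower, and Tmem70 was not called.

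Other parts of the respiratory chain and of the mitochondrion were lower too, beside 32.1% lower and 23.5% higher over all tested genes. Of 35 complex I genes (NADH dehydrogenase, Ndufa4 left out), 34 were lower and 0 higher, with a median of -0.53, Ndufb6 at -0.87 and Ndufb10 at -0.70. All 4 complex II genes (succinate dehydrogenase) were lower, with Sdhb at -0.64 and Sdha at -0.39. Among 17 genes of the outer membrane, protein import and matrix, 15 were lower and 0 higher, with a median of -0.36; the import pore gene Tomm40 was at -0.62 and Samm50, which inserts barrel proteins, at -0.59. Vdac3, an outer membrane channel gene, had the highest value, 0.07, and was not called.

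Regulators of these genes were mixed, with 3 of 12 tested lower, 2 higher and a median of 0.00. These counts lie near the shares of all tested genes, 32.1% lower and 23.5% higher. Ppargc1b, a coactivator of mitochondrial biogenesis known in osteoclasts, had 29.4, 31.1 and 30.5 RPKM in OC, against 44.6, 50.4 and 48.4 RPKM in OCP (log2 fold change -0.64 ± 0.06 SE, limma adjusted p = 4.4e-05). Gabpb2, a subunit of the GABP factor, was higher in OC, at 4.08 ± 0.257 RPKM against 2.55 ± 0.106 RPKM in OCP (SD, n = 3 each; log2 fold change 0.52 ± 0.06 SE, limma adjusted p = 0.00028). The genes of the factors whose motifs were searched are named here after their values were seen. Nrf1 was not called (log2 fold change 0.09, limma adjusted p = 0.23), and neither was Gabpa (0.05, limma adjusted p = 0.61). Yy1 was called higher in OC, close to the threshold (log2 fold change 0.23, limma adjusted p = 0.049). Among factors tied to supercomplexes and oxygen, 2 of 6 were lower and 1 higher, again near the shares of all tested genes. Chchd10, a protein of the space between the mitochondrial membranes, had 21.6, 22.0 and 22.6 RPKM in OC, against 41.2, 47.2 and 40.6 RPKM in OCP (log2 fold change -0.93 ± 0.06 SE, limma adjusted p = 1.2e-05). Hif1a, the oxygen-sensitive transcription factor, averaged 89.7 ± 9.59 RPKM in OC and 47.7 ± 5.28 RPKM in OCP (SD, n = 3 each; log2 fold change 0.90 ± 0.10 SE, limma adjusted p = 0.00019).

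**Figure D5:**
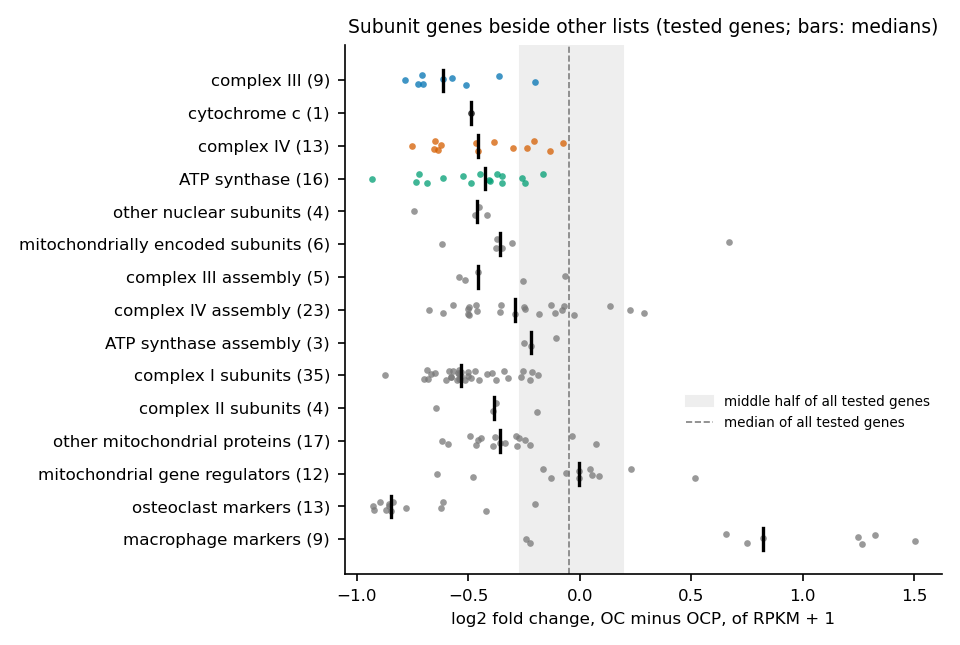
Log2 fold change (OC minus OCP, of RPKM + 1) of the tested genes of each list, 1 point per gene with a bar at the median and the number of genes in parentheses; the grey band spans the quartiles of all tested genes, -0.27 and 0.19. The medians of the complexes, -0.61, -0.49, -0.45 and -0.42, lie left of the band, and that of the regulators at 0.00 lies inside it. Those of the osteoclast and macrophage markers, at -0.84 and 0.82, lie on opposite sides of the band.

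Other marker groups also moved with the libraries, and their part in the subunit levels was not tested. Their counts stand beside 32.1% called lower and 23.5% called higher among all tested genes. The 8 measured neutrophil markers summed to 146 to 148 RPKM in OC and 65.8 to 71.4 RPKM in OCP, with 4 of 4 tested higher. Lcn2, which other cells also express, had 95.7 ± 2.04 RPKM of this in OC and 31.7 ± 1.48 RPKM in OCP (SD, n = 3 each), and S100a8 had a log2 fold change of 0.52. The granule genes Elane, Mpo and Camp were under 1 RPKM in every library with overlapping groups. Other granule genes were higher in OC without overlap. Ngp, called higher, averaged 7.94 ± 0.0879 RPKM in OC and 5.51 ± 0.842 RPKM in OCP (SD, n = 3 each). Ltf, under the filter and not tested, averaged 1.08 ± 0.110 RPKM in OC and 0.550 ± 0.0699 RPKM in OCP. The 7 immediate early and stress genes, which can respond to handling of cells, summed to 317 to 341 RPKM in OC and 126 to 131 RPKM in OCP, with 6 of 7 higher, led by the stress-induced factors Atf3 (2.57) and Ddit3 (1.37). The 6 stromal and osteoblast markers summed to 2.02 to 2.23 RPKM in OC and 1.94 to 2.01 RPKM in OCP, and none reached the filter.

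Some subunit genes share exon sequence with a neighbour, and how the counting treated such reads is not given in the sources used here. The neighbours were named after their values were seen. Atp5j shares 397 bases with Gabpa on the opposite strand, the gene of the ETS factor GABPA, which averaged 11.5 ± 0.952 RPKM in OC and 11.1 ± 0.613 RPKM in OCP with overlapping groups (SD, n = 3 each). Atp5j itself was lower, at 135, 127 and 142 RPKM in OC, against 193, 182 and 192 RPKM in OCP. Cox4i1 shares 154 bases with Emc8 on the opposite strand, which was lower as well, at 26.4 ± 0.842 RPKM in OC and 43.1 ± 2.70 RPKM in OCP (SD, n = 3 each). Cox6c shares 250 bases with Vps13b on the opposite strand, which was higher, at 2.82 ± 0.212 RPKM in OC and 1.71 ± 0.170 RPKM in OCP (SD, n = 3 each). The longest shared part was in Uqcrc2, 504 bases with Pdzd9 on the opposite strand, which was lower (log2 fold change -0.42). Atp5o shares 287 bases with Donson on the same strand, which was not called (0.15). On the opposite strand it shares 350 bases with D430001F17Rik, which was lower (-0.64), and 356 bases with Gm15976, which was not tested. Near-identical pseudogenes were found for 15 subunit genes, among them 9 of Atp5l and 4 of Cox7c. Of these, 8 and 2 were among the deposited genes, with reads equal to 3.39% and 7.34% of those of Atp5l and Cox7c. Levels of genes with such pseudogenes are uncertain by an amount that these shares do not bound.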

How the data were processed

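RNA was sequenced in 3 OC and 3 OCP libraries. The authors deposited RPKM values, made with Trimmomatic 0.36, STAR 2.5.3a and featureCounts per the submitters' processing notes. The notes name the human build GRCh38, but the deposited coordinates are those of mouse genes and are given as GRCm38. The strand setting and how multi-mapping or duplicate reads were handled are not given in the sources used here. The length of a gene in the table covers all its annotated exons, so RPKM understates a gene whose cells use a short transcript, such as Atp5l with 6443 bases.

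RPKM times length gave whole reads within 0.01 for 100% of values. Genes that reached 1 RPKM in 3 or more libraries were tested on log2(RPKM + 1) of the deposited values with limma 3.58.1 (R 4.3.3, statmod 1.5.0; trended, robust variance), with Benjamini-Hochberg adjustment over all tested genes, two-sided, threshold 0.05. Log2 fold changes (OC minus OCP) are on that scale, which understates those of low genes. Isoform ratios were compared by an exact permutation test (scipy 1.17.1). The alternatives were a pseudocount of 0.1, no filter, a minimum mean of 5 RPKM, TMM factors, quantile normalization, no trend or robust option, voom on the recovered reads (genes with at least 10 reads on average), a replicate block and leaving out each library. The limma step was tested on simulated data. Pseudogenes were matched among GENCODE M21 transcripts with blastn 2.17.0, and exon overlaps were taken from the deposited gene coordinates.

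Values in every library are given for the 3 genes of each complex with the largest change, that with the smallest, the most abundant and each tissue-restricted isoform. Of each other list, the 2 called genes with the largest change and that with the largest opposite change are given by their values, their means or their log2 fold change. Further genes are given for their role in the complex. The genes and lists were chosen with earlier results of these data known. Intervals and floors cover counting error only.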

Additional observations from a re-analysis of the deposited data

How the results depend on the processing

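Each of the 39 tested subunit genes was lower in OC in every one of the 14 alternatives that held it. The number called lower was 37 with a pseudocount of 0.1 and with a mean of at least 5 RPKM (37 tested), 36 with voom on recovered reads (25.2% of all genes tested there were called lower), 35 without a filter (14% of all genes were called lower) and without trend and robust options, 34 with TMM factors and with quantile normalization, and 34 to 36 when a library was left out; 0 were called higher. By complex, leaving out a library gave 9 of complex III, 10 to 11 of complex IV and 14 to 16 of ATP synthase. The calls that came and went were those of Cox5a, Cox7c, Uqcrq, Atp5f1, Cox7a2l (adjusted p = 0.056 with quantile normalization) and Atp5sl. Over all genes, leaving out a library gave 2524 to 2932 higher and 3370 to 3784 lower, and a mean of at least 5 RPKM gave 1645 higher among 7228 tested, fewer genes than in the main comparison. The difference in the Cox7a1 to Cox7a2 ratio, -0.03, ran between -0.115 and 0.0619 when a library was left out, and was above 0 without OC replicate 3 (0.015) and without OCP replicate 2. That of Atp5g1 to Atp5g3, -0.05, ran between -0.146 and 0.0271 and was above 0 without OC replicate 3; the cause was not tested. Correlations of deviations of same-numbered libraries were -0.11, 0.14 and 0.01, and those of differently numbered libraries ran between -0.28 and 0.26. With 3 libraries in a group, these values cannot decide whether the replicate numbers pair the libraries. In the fit with a replicate block, 36 subunit genes were lower, Cox5a alone losing its call (adjusted p = 0.061), and over all genes 2827 were higher and 3851 lower. Depth limits the statements on Cox4i2, Cox6b2 and Cox8b, which rest on at most 30 reads a library.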
